A study of Mus musculus with 3 samples.

Results

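Most of the genes described here make sterols or fatty acids, and the others control SREBP or act in sterol transport and uptake. Most are known as targets or regulators of the SREBP transcription factors, and Mylip is not among these. The set has 32 genes, chosen by name from the 55487 genes of a gene expression table of mouse ES cell-derived embryoid bodies (EBs), and all 32 were found. They fall into 8 enzymes of the mevalonate and isoprenoid steps, 11 enzymes from squalene to cholesterol, 5 genes that control SREBP, 2 genes of sterol transport and uptake, and 6 enzymes of fatty acid synthesis. Their levels were compared in 3 libraries, 1 per condition, with the sterol branch set against the fatty acid branch.

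Wild-type (WT) E14K mouse ES cells formed EBs in hanging drops and then grew in suspension. The medium, the same for all groups, held bovine calf serum and no LIF, the cytokine that keeps ES cells undifferentiated. The libraries came from EBs on day 3 with DMSO, on day 4 with DMSO, and on day 4 with C2 ceramide, a cell-permeable ceramide with a short acyl chain, at 30 μM and present from the beginning of day 3. The labels call both DMSO libraries controls. The question of the series was how ceramide acts on formation of the primitive streak, the structure from which mesoderm and endoderm arise. Total counts were 33619197 on DMSO day 3, 35078820 on DMSO day 4 and 35290094 with C2 ceramide, and 17655 genes had at least 10 counts in at least 1 library, all 32 members among them.

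Since each condition has 1 library, conditions could not be tested against each other and no value below has a replicate check. Levels are given in TPM, a unit that scales counts by transcript length and by library, always with DMSO day 3 first, then DMSO day 4 and last C2 ceramide. Differences are log2 ratios of TPM, followed in parentheses by a 95% interval that covers counting error only. A gene was called higher at a ratio above 2 and lower at a ratio below 0.5. In RNA from whole EBs, fewer cells of a type and less RNA per cell cannot be told apart.

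Sterols and isoprenoids are built from acetyl-CoA through mevalonate, and fatty acids from acetyl-CoA through malonyl-CoA. SREBP precursors sit in the endoplasmic reticulum bound to Scap, and Insig proteins hold that complex there when sterols are plentiful. When sterols are scarce, SREBP is carried to the Golgi, cut, and enters the nucleus, where it acts with partners such as NF-Y at sterol regulatory elements and CCAAT boxes; SREBP-2 is known mainly for sterol genes and SREBP-1c for fatty acid genes.

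The promoter sequences are shown as a description only. The genes were chosen by name, most of them as known targets or regulators of SREBP, which acts at such motifs. The share of members with a motif is therefore not independent of that choice. RefSeq promoter windows of GRCm38.p6 matched 26 of the 32 members by symbol, and the 250 bases before each start were searched on both strands. The windows of 3 genes are printed 5′ to 3′ on the gene's strand: Hmgcs1 for its sterol regulatory element, Mvk for its CCAAT boxes in a gene whose ratio lay near 1, and Fasn as the fatty acid gene with the most CCAAT boxes. Capitals mark matches to TCACNCCAC, a form of the sterol regulatory element, and to CCAAT, which reads ATTGG where it lies on the other strand.
Hmgcs1, chr13:119690101-119690350, plus strand: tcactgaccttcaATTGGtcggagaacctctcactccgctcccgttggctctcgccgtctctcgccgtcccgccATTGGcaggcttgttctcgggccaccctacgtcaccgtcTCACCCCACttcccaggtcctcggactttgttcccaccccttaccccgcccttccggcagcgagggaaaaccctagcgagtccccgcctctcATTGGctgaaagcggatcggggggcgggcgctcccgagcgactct
Mvk, chr5:114444019-114444268, plus strand: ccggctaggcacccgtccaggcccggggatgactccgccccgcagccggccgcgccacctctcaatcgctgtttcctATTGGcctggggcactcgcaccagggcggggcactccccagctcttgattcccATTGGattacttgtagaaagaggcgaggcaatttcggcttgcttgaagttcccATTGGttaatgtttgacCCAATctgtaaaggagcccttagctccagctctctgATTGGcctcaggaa
Fasn, chr11:120824548-120824797, minus strand: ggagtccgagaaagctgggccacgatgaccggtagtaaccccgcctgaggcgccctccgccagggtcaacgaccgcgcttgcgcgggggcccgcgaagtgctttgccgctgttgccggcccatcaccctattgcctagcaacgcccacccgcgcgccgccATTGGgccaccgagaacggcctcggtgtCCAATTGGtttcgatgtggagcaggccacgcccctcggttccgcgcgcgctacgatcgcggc
Hmgcs1 held 1 sterol regulatory element, beginning 137 bases before its RefSeq start, and 3 CCAAT boxes. Mvk held 5 CCAAT boxes, and Fasn held 3, of which a pair overlap on opposite strands.

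The CCAAT box was found in 21 of the 26 members with a window (80.8%), against 37.5% of 27025 genes with a window and 39.5% of 17491 protein-coding genes. It was present in 15 of the 16 mevalonate and sterol enzymes searched, and in 1 of the 4 fatty acid enzymes searched, Fasn. Fdps, Fdft1, Sqle, Scd1, Scd2 and Stard4 had no window, so the fatty acid count leaves out Scd1 and Scd2. The GC box GGGCGG was found in 21 of 26 members (80.8%), against 45.8% of protein-coding genes, in 14 of the 16 mevalonate and sterol enzymes and in 1 of the 4 fatty acid enzymes, Acly. The E-box CACGTG was found in 5 of 26 (19.2%), against 7.61%. TCACNCCAC was found in 1 of 26 members (3.85%) and in 1.20% of protein-coding genes. A gene with several windows counted once. All motifs were searched on both strands and independently, so matches may overlap, and a match describes these letters only.

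Seen together, most of the 32 genes had their highest level on DMSO day 3 and their lowest with C2 ceramide. The lowest of the 3 libraries was the C2 ceramide library for 25 of 32 genes, against 32.8% of all 17655 genes, and the highest was DMSO day 3 for 24 of 32, against 29.0%. Their summed level was 2202, 1676 and 1238 TPM. The C2 ceramide sum was 73.9% of the DMSO day 4 sum and 56.2% of the DMSO day 3 sum.

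**Figure D1:**
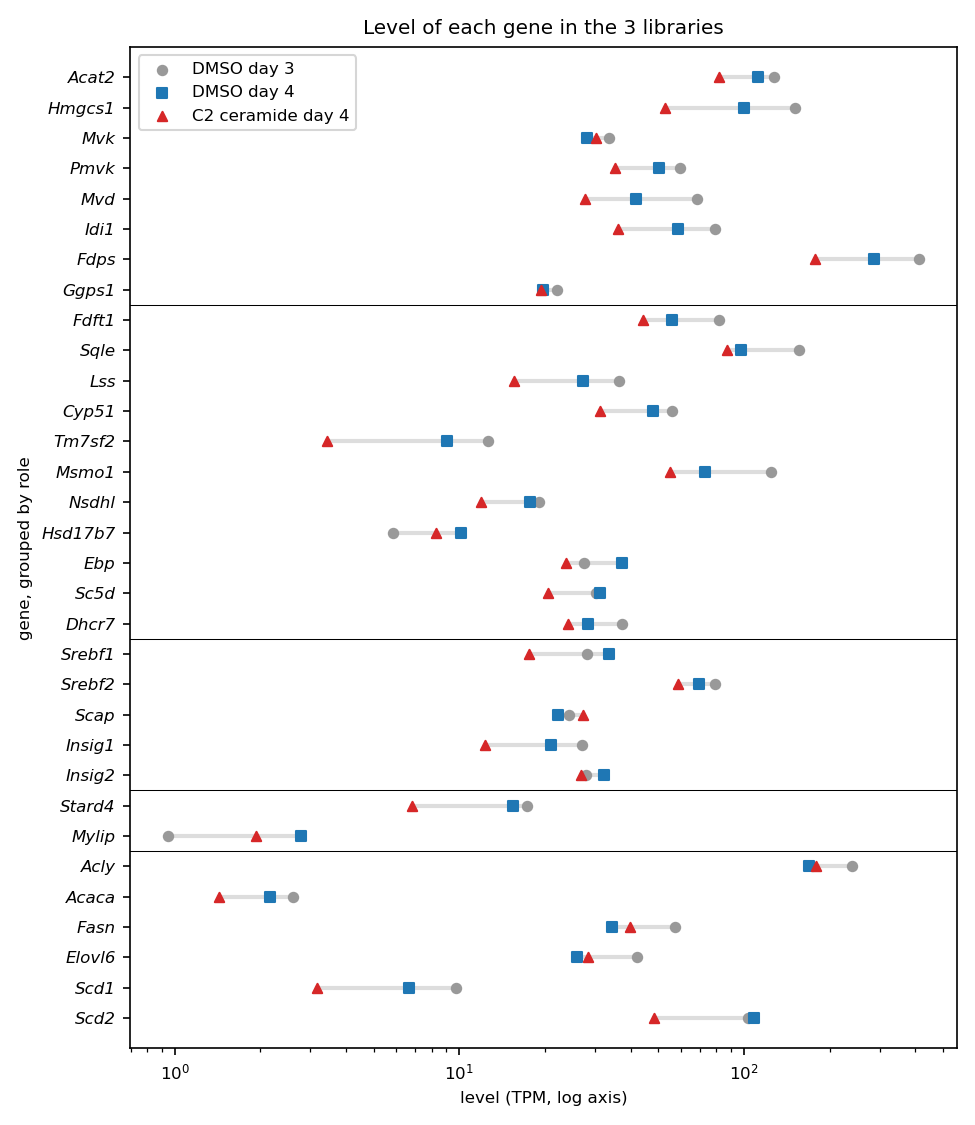
Level of each of the 32 genes in TPM, on a log axis, with 1 point per library and genes grouped by role from top to bottom. The C2 ceramide triangle is the leftmost point for 25 genes, and the gray bars join the lowest and highest library.

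Between DMSO day 4 and C2 ceramide day 4 the ratio was below 1 for 27 of 32 genes (84.4%), against 52.9% of all genes and 53.3% of the 12036 genes at or above the mean TPM of the lowest member. The median log2 ratio was −0.56, against −0.03 over all genes. A ratio below 1/1.5 was seen for 15 of 32 (46.9%), against 19.5% of all genes and 11.3% of the genes expressed at least as highly. By contrast, 4 of 32 were called lower (12.5%), which is near the 12.3% of all genes, and above the 4.95% of the genes expressed at least as highly. The 4 were Tm7sf2, Stard4, Scd1 and Scd2. No member was called higher, against 9.97% of all genes. The counting interval around the TPM ratio lay wholly below 1 for 26 genes, wholly above 1 for 4 genes, Scap, Acly, Fasn and Elovl6, and held 1 for Mvk and Ggps1. The same shares over all genes were not computed, so these counts have no background beside them. In counts per library total the log2 ratios of Acly and Elovl6 were −0.06 and 0.04.

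The next comparison is between the 2 controls. From DMSO day 3 to DMSO day 4 the ratio was below 1 for 25 of 32 genes, against 44.5% of all genes and 43.9% of those expressed at least as highly, with a median log2 ratio of −0.26 against 0.05. None was called lower, against 9.45% of all genes, and Mylip alone was called higher, against 12.8%. From DMSO day 3 to C2 ceramide day 4 the ratio was below 1 for 29 of 32, against 46.7% and 46.0%, and the median was −0.72 against 0.03. Of the 32, 11 were called lower (34.4%), against 9.39% of all genes and 2.68% of those expressed at least as highly. They were Hmgcs1, Mvd, Idi1, Fdps, Lss, Tm7sf2, Msmo1, Insig1, Stard4, Scd1 and Scd2. Mylip alone was called higher, against 11.2%. The 3 comparisons share libraries, so these counts are not independent of each other.

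The mevalonate and isoprenoid enzymes turn acetyl-CoA into farnesyl and geranylgeranyl diphosphate. Hmgcs1 (chr13:119690379-119708260, plus strand, GRCm38), the synthase that makes HMG-CoA, was at 151, 100.3 and 52.9 TPM, from 12226, 8382 and 4429 counts. Its level in the C2 ceramide library was 52.7% of that on DMSO day 4 and 35.1% of that on DMSO day 3. The log2 ratio of C2 ceramide to DMSO day 4 was −0.92 (−0.98 to −0.87), the lowest of the 8 enzymes. The log2 ratio of Hmgcs1 was −0.59 from DMSO day 3 to DMSO day 4, and its 3 libraries were ordered DMSO day 3, DMSO day 4, C2 ceramide from high to low.

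Fdps (chr3:89093588-89101959, minus strand), which makes farnesyl diphosphate, was the most abundant of the 32 genes on a per-length scale in each control, at 414, 286 and 178 TPM. Its log2 ratio of C2 ceramide to DMSO day 4 was −0.68 (−0.73 to −0.63). Idi1, the isomerase that supplies dimethylallyl diphosphate, was at 79.4, 58.8 and 36.2 TPM, and its log2 ratio was −0.70 (−0.77 to −0.63). Both genes had the same order of libraries as Hmgcs1.

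Mvd, the mevalonate diphosphate decarboxylase, was at 68.5, 41.7 and 27.7 TPM and Pmvk, the phosphomevalonate kinase before it, at 59.7, 50.1 and 35.3 TPM. Their log2 ratios of C2 ceramide to DMSO day 4 were −0.59 (−0.69 to −0.49) and −0.51 (−0.62 to −0.39). Acat2, a thiolase that joins acetyl-CoA units, was at 127, 112 and 81.5 TPM, and its log2 ratio was −0.46 (−0.51 to −0.40). Counts of Acat2 were not whole and may share reads with its near copy Acat3, which had 466, 462 and 317 counts. Mvd, Pmvk and Acat2 were again lowest with C2 ceramide and highest on DMSO day 3.

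The other two enzymes stood near 1. Mvk (chr5:114444269-114460591, plus strand), the mevalonate kinase, was at 33.5, 28.2 and 30.4 TPM, and the log2 ratio of C2 ceramide to DMSO day 4 was 0.11 (−0.01 to 0.22). Ggps1, which makes geranylgeranyl diphosphate for protein prenylation, was at 22.0, 19.6 and 19.3 TPM, and its log2 ratio was −0.03 (−0.14 to 0.09). Both intervals held 0 on the log2 TPM scale. In counts per library total the log2 ratios were 0.13 for Mvk and −0.13 for Ggps1. The 8 enzymes summed to 955, 697 and 461 TPM, and the C2 ceramide sum was 66.2% of the DMSO day 4 sum.

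All 11 sterol enzymes had a ratio of C2 ceramide to DMSO day 4 below 1, against 52.9% of all genes. The log2 ratios ran from −1.40 to −0.16, with a median of −0.58. Their summed level was 587, 436 and 326 TPM. Sqle, squalene epoxidase and a rate-limiting step of the branch, was at 156, 97.9 and 87.5 TPM. Its log2 ratio of C2 ceramide to DMSO day 4, −0.16 (−0.21 to −0.11), was the nearest to 0 of the 11, while its log2 ratio of DMSO day 4 to DMSO day 3 was −0.67. Sqle thus differed more between the controls than between the day 4 libraries, as did Fdft1, Msmo1, Hsd17b7 and Dhcr7 on the TPM scale. Fdft1, the squalene synthase, was at 81.6, 56.0 and 44.1 TPM, and Msmo1, a sterol C4 methyl oxidase, was at 124, 73.0 and 54.8 TPM. The log2 ratios of C2 ceramide to DMSO day 4 were −0.35 (−0.41 to −0.28) for Fdft1 and −0.41 (−0.49 to −0.34) for Msmo1.

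Lss, which folds squalene epoxide into lanosterol, was at 36.5, 27.1 and 15.6 TPM, and its log2 ratio was −0.80 (−0.89 to −0.71). In counts per library total the log2 ratio was −0.55. Cyp51, the lanosterol 14-alpha demethylase, was at 55.7, 47.8 and 31.3 TPM, and its log2 ratio was −0.61 (−0.67 to −0.54).

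Tm7sf2 (chr19:6062821-6068373, minus strand), a sterol C14 reductase, had the lowest TPM ratio of the 32 genes between the day 4 libraries. Its levels were 12.6, 9.04 and 3.44 TPM from 369, 260 and 120 counts, which gave a log2 ratio of C2 ceramide to DMSO day 4 of −1.40 (−1.72 to −1.08). In counts per library total the log2 ratio was −1.12, still past the threshold, but for its leading coding transcript alone it was −0.86 in TPM, which is not. Scd2 was lower than Tm7sf2 in counts per library total, at −1.14. The span of Tm7sf2 overlaps that of Vps51 on the same strand, with 1975, 2635 and 2665 counts, so its value is uncertain where the exons meet.

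Nsdhl and Hsd17b7 remove methyl groups at C4, and Ebp and Sc5d move and add double bonds in the sterol rings. Nsdhl was at 19.0, 17.8 and 11.9 TPM, and the log2 ratio of C2 ceramide to DMSO day 4 was −0.58 (−0.72 to −0.44). Ebp was at 27.4, 37.4 and 23.8 TPM, at a log2 ratio of −0.65 (−0.77 to −0.54), and Sc5d was at 30.3, 31.3 and 20.6 TPM, at a log2 ratio of −0.61 (−0.73 to −0.49). Ebp and Sc5d had their highest level on DMSO day 4, and for Ebp the log2 ratio of DMSO day 4 to DMSO day 3 was 0.45 (0.33 to 0.56).

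Hsd17b7 was at 5.84, 10.1 and 8.29 TPM, lowest on DMSO day 3, and the log2 ratio of C2 ceramide to DMSO day 4 was −0.29 (−0.47 to −0.12). In counts per library total this log2 ratio was −0.69. Dhcr7, which makes cholesterol from 7-dehydrocholesterol, was at 37.4, 28.2 and 24.2 TPM, and its log2 ratio was −0.22 (−0.33 to −0.12). Dhcr7 was highest on DMSO day 3 and lowest with C2 ceramide, with a small difference between the day 4 libraries.

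**Figure D2:**
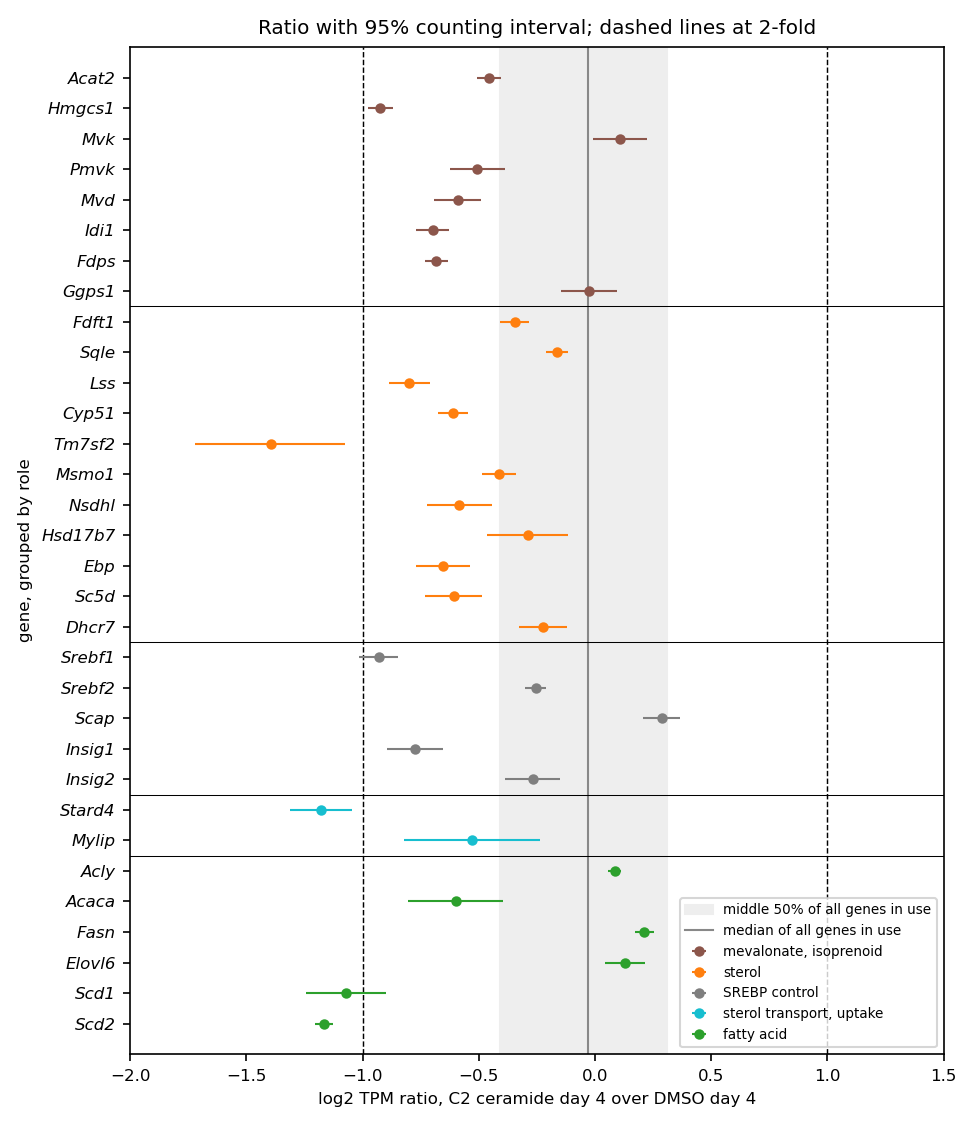
Log2 TPM ratio of C2 ceramide to DMSO on day 4 for each gene, with the 95% counting interval as a horizontal line, genes colored by role, dashed lines at 2-fold, and the middle 50% of all genes in use in gray. The 19 mevalonate and sterol enzymes run from −1.40 to 0.11, and the 6 fatty acid enzymes lie in a group of 3 below −0.5 and a group of 3 above 0. These groups hold in TPM over all transcripts, since in counts per library total Acaca was at −0.41 and Acly at −0.06.

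The 5 genes that control SREBP differed among themselves, with ratios on both sides of 1. Srebf1 (chr11:60199089-60222581, minus strand), which encodes SREBP-1a and SREBP-1c, was at 28.2, 33.6 and 17.7 TPM, and the log2 ratio of C2 ceramide to DMSO day 4 was −0.93 (−1.01 to −0.85). In counts per library total it was −0.62. Srebf2 (chr15:82147181-82205379, plus strand), which encodes SREBP-2, was at 79.5, 69.8 and 58.5 TPM, and its log2 ratio was −0.25 (−0.30 to −0.21). On the TPM scale the ratio lay further from 1 for Srebf1 than for Srebf2, and each had its lowest level with C2 ceramide.

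Part of the Srebf1 TPM came from transcripts annotated as noncoding, 10.1%, 31.8% and 13.8% of the gene's TPM in the 3 libraries. The leading coding transcript, ENSMUST00000020846.7, was at 16.8, 17.1 and 11.4 TPM, and the log2 ratio of C2 ceramide to DMSO day 4 was −0.58. The sign of the DMSO day 4 to DMSO day 3 ratio of Srebf1 turned with the scale, from 0.26 in TPM to −0.12 in counts per library total.

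Insig1 (chr5:28071363-28078662, plus strand), itself an SREBP target that retains Scap, was at 27.0, 21.0 and 12.3 TPM, and the log2 ratio of C2 ceramide to DMSO day 4 was −0.77 (−0.90 to −0.65). Its paralog Insig2 was at 28.0, 32.2 and 26.7 TPM, at a log2 ratio of −0.27 (−0.39 to −0.15) in TPM and −0.01 in counts per library total. Scap, the escort of SREBP, was at 24.3, 22.3 and 27.2 TPM, and its log2 ratio was 0.29 (0.21 to 0.37). Insig1 was lowest with C2 ceramide in an order shared with Hmgcs1, whereas Scap was highest with C2 ceramide.

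Of the sterol transport and uptake genes, Stard4 (chr18, minus strand), a carrier of cholesterol between membranes, was at 17.3, 15.5 and 6.85 TPM, from 1715, 1320 and 715 counts. Its log2 ratio of C2 ceramide to DMSO day 4 was −1.18 (−1.31 to −1.05) in TPM and −0.89 in counts per library total, so it was called lower in TPM only. Mylip (chr13:45389742-45412022, plus strand), a ubiquitin ligase that leads lipoprotein receptors to degradation and is a known target of LXR, was at 0.946, 2.78 and 1.92 TPM from 79, 237 and 166 counts. It was called higher on DMSO day 4 over DMSO day 3, at 1.55 (1.18 to 1.94), and the log2 ratio of C2 ceramide to DMSO day 4 was −0.53 (−0.82 to −0.24). Mylip had the fewest counts of the 32 genes and was 1 of 7 members with a ratio above 1 between the controls.

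The fatty acid enzymes split on the TPM scale. Acly (chr11:100476353-100528000, minus strand), which makes cytosolic acetyl-CoA from citrate, was at 240.0, 169 and 179 TPM. Its log2 ratio of C2 ceramide to DMSO day 4 was 0.08 (0.05 to 0.11) in TPM and −0.06 in counts per library total. In TPM of the protein-coding transcripts alone the Acly ratio was −0.08. Fasn (chr11:120805846-120824547, minus strand), the fatty acid synthase, was at 57.5, 34.3 and 39.7 TPM, and its log2 ratio was 0.21 (0.17 to 0.25). Elovl6, which extends palmitate, was at 42.0, 26.0 and 28.4 TPM, and its log2 ratio was 0.13 (0.04 to 0.22). In counts per library total the log2 ratios were 0.12 for Fasn and 0.04 for Elovl6. For Acly, Fasn and Elovl6 both day 4 libraries lay below DMSO day 3, with log2 ratios of DMSO day 4 to DMSO day 3 of −0.51, −0.75 and −0.69. In TPM the C2 ceramide library was not the lowest for these 3 genes.

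The desaturases, which put a double bond into stearoyl-CoA and palmitoyl-CoA, had ratios below 0.5 in TPM. Scd2 (chr19:44293674-44306864, plus strand) was at 103, 108 and 48.2 TPM, from 16157, 17393 and 7920 counts, and the log2 ratio of C2 ceramide to DMSO day 4 was −1.17 (−1.20 to −1.13) in TPM and −1.14 in counts per library total. Its controls lay close together, at 0.07 from DMSO day 3 to DMSO day 4. Of the 4 genes called lower, Scd2 had the most counts.

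Scd1 (chr19:44394455-44407879, minus strand) was at 9.76, 6.65 and 3.17 TPM, and the log2 ratio of C2 ceramide to DMSO day 4 was −1.07 (−1.24 to −0.90) in TPM and −0.81 in counts per library total. The call in TPM included 1 short transcript of 329 bases, to which 3 counts and 1.10 TPM were given on DMSO day 4 and none in the other libraries. Its long transcript alone had a log2 ratio of −0.81. Acaca, the acetyl-CoA carboxylase that makes malonyl-CoA, was at 2.60, 2.17 and 1.43 TPM. Its log2 ratio was −0.60 (−0.80 to −0.40) in TPM and −0.41 in counts per library total. Counts for Scd1, Scd2 and Acaca were not whole numbers, so the authors' counting divided reads among features, and values of related genes such as Scd1, Scd2 and Scd3 are uncertain to that extent.

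Set beside each other, the 19 mevalonate and sterol enzymes had a median log2 ratio of C2 ceramide to DMSO day 4 of −0.58, and the 6 fatty acid enzymes had −0.26. The ranges overlapped, from −1.40 to 0.11 and from −1.17 to 0.21. In TPM the ratio was below 1 for 18 of 19 and for 3 of 6, against 52.9% of all genes. The count of 3 of 6 is thus near the share of all genes. Summed levels of the sterol side were 1542, 1132 and 787 TPM, and the C2 ceramide sum was 69.5% of the DMSO day 4 sum. The fatty acid side summed to 455, 346 and 299.9 TPM, or 86.6% of DMSO day 4.

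Within the fatty acid side, Scd1 and Scd2 summed to 113, 115 and 51.4 TPM, or 44.8% of DMSO day 4. Acly, Acaca, Fasn and Elovl6 summed to 342, 231 and 248 TPM, or 107% of DMSO day 4. Most of that sum is Acly, whose direction turned with the scale, and the median log2 ratio of these 4 genes was 0.11 in TPM and −0.01 in counts per library total. From DMSO day 3 to DMSO day 4 these 4 genes stood at 67.6% of their first level, Scd1 and Scd2 at 102%, and the 19 sterol side enzymes at 73.5%. The difference between branches was not tested, since each condition has 1 library.

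**Figure D3:**
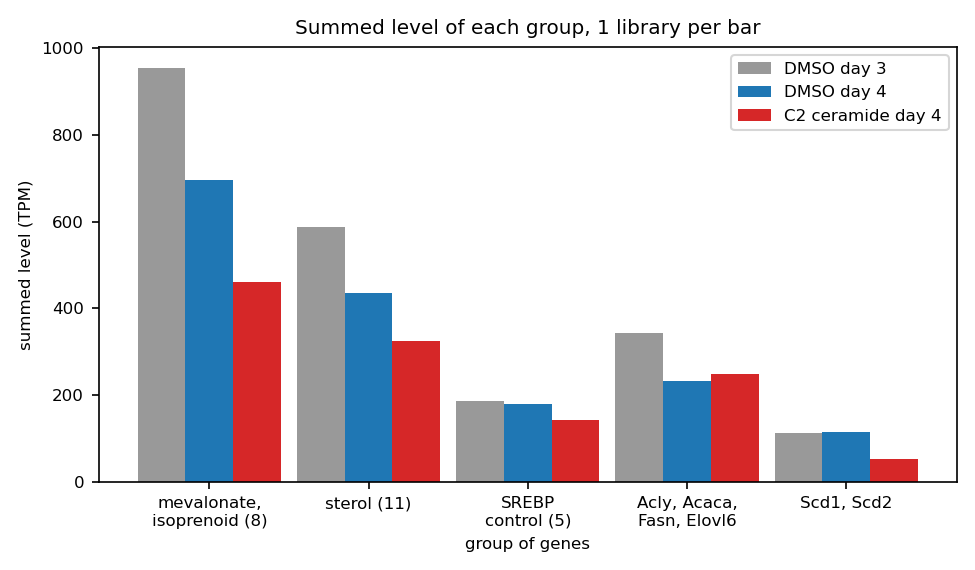
Summed level in TPM of each group of genes in the 3 libraries, 1 library per bar and the axis starting at 0. With C2 ceramide the mevalonate, sterol and desaturase bars are below both DMSO bars. The bar of Acly, Acaca, Fasn and Elovl6 is slightly above DMSO day 4 in TPM. Most of that bar is Acly, whose ratio was below 1 in counts per library total and from protein-coding transcripts alone.

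The scale on which a ratio is taken changed some calls. In counts per library total, 2 of the 32 genes were called lower with C2 ceramide against DMSO day 4, Tm7sf2 and Scd2, against 11.9% of all genes on that scale. TPM and counts differed by more than 0.2 on the log2 scale for Lss, Tm7sf2, Hsd17b7, Srebf1, Insig2, Stard4 and Scd1. Of the mevalonate and isoprenoid enzymes, Ggps1 had the widest gap between the scales, at −0.03 in TPM and −0.13 in counts.

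**Figure D4:**
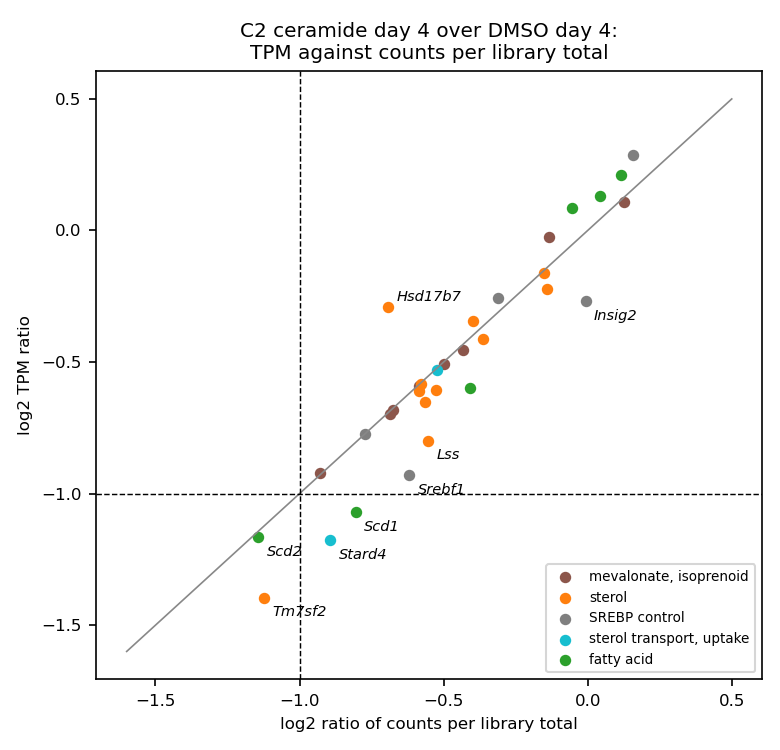
Log2 ratio of C2 ceramide to DMSO on day 4 in TPM (vertical) against counts per library total (horizontal), 1 point per gene, with the line of equality and dashed lines at 2-fold. Stard4 and Scd1 cross the 2-fold line in TPM only, while Tm7sf2 and Scd2 cross it on both scales.

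Other genes of the same pathways were taken as lists. Of 10 other genes of sterol synthesis and SREBP processing found in the table, 0 were called higher, against 9.97% of all genes, and 0 lower, against 12.3%, with C2 ceramide relative to DMSO day 4. The median log2 ratio was −0.13. Tmem97, a sterol-responsive membrane protein, was at 110.3, 109.5 and 81.9 TPM, at a log2 ratio of −0.42 (−0.49 to −0.35). Of 10 genes that use isoprenoids, 0 were likewise called in either direction, with a median of −0.03. Pdss1, which makes the ubiquinone side chain, was at 15.6, 15.2 and 23.7 TPM, at a log2 ratio of 0.64 (0.49 to 0.79), and Fntb, the farnesyltransferase beta subunit, was at 11.8, 13.4 and 10.3 TPM, at a log2 ratio of −0.38 (−0.52 to −0.24).

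Of 15 other fatty acid genes in use, 2 were called higher, Acacb and Mid1ip1, against 9.97% of all genes, and 1 lower, Lpin1, against 12.3%. The ratio was below 1 for 12 of 15, against 52.9%, with a median of −0.23. Lpin1, a phosphatidate phosphatase, was at 6.31, 6.83 and 2.75 TPM, at a log2 ratio of −1.31 (−1.49 to −1.13). Mid1ip1, an activator of acetyl-CoA carboxylase, was at 56.1, 31.5 and 67.1 TPM, at a log2 ratio of 1.09. Acacb, the mitochondrial acetyl-CoA carboxylase, was at 3.53, 1.55 and 3.83 TPM, at a log2 ratio of 1.30 (1.07 to 1.54) in TPM and 0.61 in counts per library total, so it was called higher in TPM only. Of 13 genes of sterol uptake, storage and efflux, 2 were called higher, Abca1 and Nr1h3, and 0 lower, against the same 9.97% and 12.3% of all genes, with a median of 0.02. Abca1, the cholesterol efflux pump, was at 0.091, 0.083 and 0.632 TPM from 27, 25 and 193 counts, at a log2 ratio of 2.93 (2.32 to 3.59), and Nr1h3, which encodes LXR alpha, was at 1.39, 1.62 and 3.41 TPM, at a log2 ratio of 1.07 (0.68 to 1.47). Abca1 is an LXR target like Mylip, and these 2 genes had ratios on opposite sides of 1. These 2 genes are not a survey of LXR targets, and a part of LXR was not tested.

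**Figure D5:**
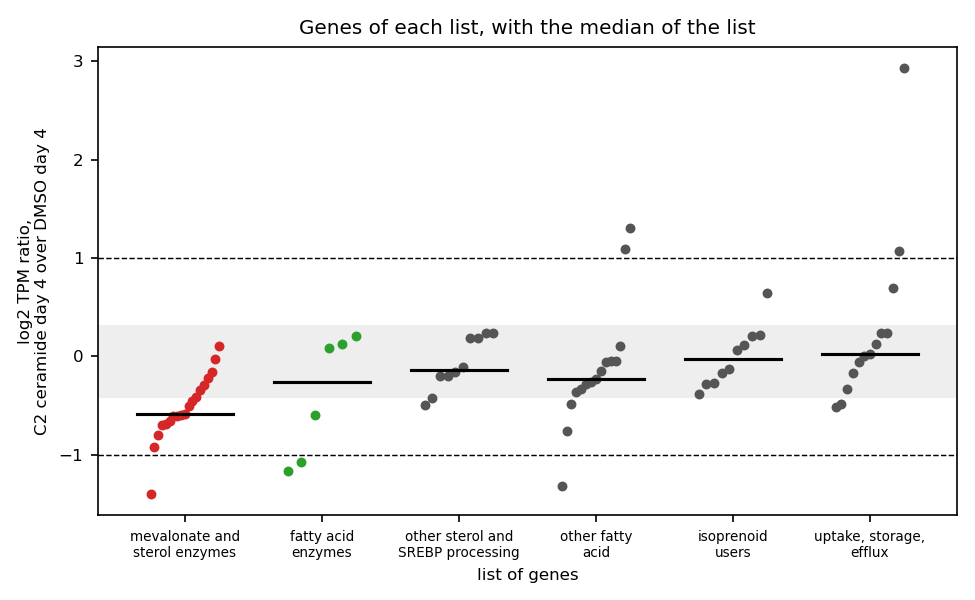
Log2 TPM ratio of C2 ceramide to DMSO on day 4 for the genes in use of each list, 1 point per gene in order of size, with the list median as a black bar, dashed lines at 2-fold and the middle 50% of all genes in gray. Of the 6 lists drawn, the mevalonate and sterol enzymes have the lowest median, at −0.58, and Abca1 is the highest point, at 2.93.

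Markers of cell states also differed between the libraries. Of all genes, 9.97% were called higher and 12.3% lower with C2 ceramide against DMSO day 4. From DMSO day 3 to DMSO day 4, 12.8% of all genes were called higher. The 10 pluripotency markers, which include Pou5f1 and Sox2, summed to 1643, 1265 and 1727 TPM, none at 0 in any library, and 6 were called higher and 1 lower with C2 ceramide against DMSO day 4. The 8 streak and mesoderm markers summed to 90.5, 793 and 69.9 TPM, with Msgn1 at 0 on DMSO day 3, and 8 of 8 were called lower with C2 ceramide after 8 of 8 had been called higher on DMSO day 4 over DMSO day 3. The 8 endoderm markers summed to 9.60, 368 and 10.5 TPM, none at 0, with 4 called lower and 2 higher with C2 ceramide. The 8 neural markers summed to 13.8, 11.9 and 44.4 TPM, with Sox1 at 0 in both controls, and 7 were called higher and 1 lower. Most of the C2 ceramide sum was Gbx2 at 17.2 TPM and Tubb3 at 16.5 TPM. Sox1, Pax6, Neurod1 and Six3 were low with C2 ceramide, at 0.524, 0.921, 0.799 and 0.785 TPM. Against DMSO day 3, 5 of the 8 were called higher and 0 lower. The part of these cell states in the levels of the sterol and fatty acid genes was not tested.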

How the data were processed

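EB RNA was sequenced in 3 libraries, made with the SMART-Seq v4 and Nextera XT kits, which keep no strand. The authors analyzed the reads with DRAGEN Bio-IT Platform 3.6.3, GRCm38 and GENCODE M25, and deposited 2 values for each of 55487 genes and 142699 transcripts, a TPM and an estimated count. The deposited estimated counts are expected counts, not normalized, and 12 of the 32 members have counts that are not whole. They were rounded for the intervals.

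Ratios were taken between libraries with SciPy 1.17.1, pandas 2.3.3 and NumPy 2.4.6 under Python 3.11.15. Matplotlib 3.10.9 drew the figures. Listed zeros in TPM became 0.001. A gene was in use where 1 or more libraries had 10 or more counts. The 95% interval is an exact conditional one (Clopper-Pearson), made from rounded counts and library totals and then moved to be centered on the TPM scale. It takes transcript lengths as known and counts PCR copies of 1 molecule separately. Its method was tested on simulated counts that held counting error only, before the move to the TPM scale. That test cannot show how the interval fares with any other error. No test or p-value is given. The thresholds of 2 and 0.5 are those of the study.

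The members and the gene lists were chosen with earlier results of these data known. Named are all 32 members and, of each other list that is no marker list, the 2 genes with the largest C2 ceramide to DMSO day 4 log2 TPM ratio of either sign, provided a library had 50 or more counts. Mid1ip1 was named after its value was seen. A gene that the rule names is not reported here. One listed symbol, Faxdc2, had no row, and Thrsp was below the filter. Alternatives were other added constants, filters, fold thresholds, counts per library total, TMM of edgeR 4.0.16 and size factors of DESeq2 1.42.0 in R 4.3.3, both for scaling only, and protein-coding transcripts only. Promoter windows came from RefSeq on GRCm38.p6.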

Additional observations from a re-analysis of the deposited data

How the results depend on the processing

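With 1 library per condition, no replicate could be left out. No paired analysis was possible because each group has 1 library. Precision rests on counts, and the member with the fewest, Mylip, had 79 on DMSO day 3. The medians of the 19 mevalonate and sterol enzymes and of the 6 fatty acid enzymes kept their direction under every alternative. Medians of smaller groups were taken in TPM and in counts per library total only. With C2 ceramide against DMSO day 4, the median of Acly, Acaca, Fasn and Elovl6 turned from 0.11 in TPM to −0.01 in counts. Members called lower with C2 ceramide against DMSO day 4 numbered 2 in counts per library total, with TMM and with DESeq2 size factors. The shares of all genes were 11.9%, 11.5% and 11.5%. The number of members was 15 at 1.5-fold, against 19.5% of all genes, and 0 at 4-fold. Against DMSO day 3 it was 20 at 1.5-fold and 0 at 4-fold, and from DMSO day 3 to DMSO day 4 it was 6 at 1.5-fold. Members called higher from DMSO day 3 to DMSO day 4 numbered 2 at 1.5-fold and 0 with 1 TPM added, at least 100 counts in every library, or 4-fold. Of all genes, 3.79% were called higher with 1 TPM added and 3.46% with at least 100 counts in every library. With C2 ceramide against DMSO day 3, members called higher numbered 0 with 0.1 or 1 TPM added, TMM or DESeq2 size factors. The shares of all genes were 8.67%, 2.31%, 10.5% and 10.5%. Such members also numbered 0 at 4-fold, and 0 with at least 100 counts in every library, against 2.76% of all genes with that filter. Shares of all genes were not computed at 4-fold or for the other 1.5-fold counts. The median of the fatty acid enzymes moved to −0.56 with C2 ceramide against DMSO day 3 and −0.15 against DMSO day 4 with 1 TPM added, and to −0.64 from DMSO day 3 to DMSO day 4 with TMM and with DESeq2 size factors. Single genes whose sign turned with TMM and DESeq2 size factors were Ggps1, Insig2, Sc5d and Srebf1 between the controls, Acly and Insig2 between the day 4 libraries, and Hsd17b7 between C2 ceramide and DMSO day 3. With protein-coding transcripts only, the sign turned for Srebf1 between the controls and for Acly and Ggps1 between the day 4 libraries. The cause was not tested.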

Other observations

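At the level of transcripts, 29 of the 32 genes had the same leading transcript in all 3 libraries. The exceptions were Hsd17b7, Insig2 and Acly, and in each the leading transcript differed in the C2 ceramide library. For Hsd17b7, the coding transcript of 4612 bases was at 2.95, 4.58 and 2.34 TPM (DMSO day 3, then DMSO day 4, then C2 ceramide), and a coding transcript of 1446 bases was at 0.935, 2.64 and 3.03 TPM. For Insig2, a transcript of 1204 bases was at 13.4, 14.7 and 8.31 TPM and one of 2697 bases at 10.9, 9.84 and 11.7 TPM. For Acly, a processed transcript of 772 bases was at 29.9, 20.4 and 37.8 TPM, and the coding transcript ENSMUST00000107389.7 was at 91.4, 68.6 and 56.7 TPM. Other coding transcripts of Acly were ENSMUST00000165111.7, at 84.7, 60.9 and 58.7 TPM and leading with C2 ceramide, and ENSMUST00000007131.15, at 28.7, 15.8 and 21.8 TPM.

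Msmo1 carried a processed transcript of 1329 bases at 17.4, 7.18 and 1.79 TPM, from 498, 210 and 53 counts, beside a coding transcript at 102, 63.3 and 51.0 TPM. In Lss, a retained intron transcript of 425 bases held 6.83, 8.24 and 2.63 TPM from 31, 38 and 13 counts, beside a coding transcript at 25.7, 17.2 and 12.1 TPM, whose log2 ratio of C2 ceramide to DMSO day 4 was −0.52. The short Lss transcript thus gave 30.3% of the gene's TPM on DMSO day 4. For Tm7sf2 the leading coding transcript was at 4.70, 4.33 and 2.38 TPM, and its log2 ratio was −0.86.

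Some members overlap other genes, and the library kit keeps no strand. Fdft1 overlaps Ctsb on the opposite strand, which had 5888, 6343 and 7364 counts, and Ggps1 overlaps Arid4b, with 1249, 1407 and 1552 counts. Srebf1 overlaps Rai1, with 545, 1181 and 560 counts, and Cyp51 overlaps Akap9, with 1102, 993 and 952 counts. Where exons of such pairs meet, reads from either gene cannot be told apart.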
